A study of Mus musculus with 12 samples.

Results

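The Rab genes of the mouse were followed in SOD1 G93A mice, a model of amyotrophic lateral sclerosis, and in their non-transgenic (NTg) littermates, using astrocytes cut out of lumbar cord sections by laser capture. A gene counted as a Rab gene when its probe sets on the Affymetrix Mouse Genome 430 2.0 GeneChip carried a single symbol made of Rab, a number and at most a letter, which gave 59 genes and 132 probe sets among 18193 genes with a single symbol. Each gene was taken by the brightest of its probe sets, and no difference between groups entered that choice of probe set. The Rab genes as a family were chosen with earlier results of these data known. The 4 groups were SOD1 G93A and NTg mice at 90 days, the symptomatic stage, and at 120 days, the late stage, with 3 male mice and 3 arrays in each, so 12 arrays in all. The background strain of the mice was C57Bl/6 J Ola/Hsd, reached by backcrossing, and the transgenic groups carried human SOD1 with the G93A mutation in all tissues, not in astrocytes alone. At least 1500 cells were captured per mouse. The labels name toluidine blue as the stain and the methods ALDH1L1 antibody, and the study describes the captured RNA as that of a cell mixture in which astrocytes are a large part.

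Rab proteins are small GTPases that give each membrane compartment its identity. In the GTP-bound form a Rab sits on its membrane through prenyl groups and recruits effectors such as motors, tethers and coat proteins. Exchange factors load GTP, GTPase-activating proteins end the signal, and the GDP dissociation inhibitor carries the inactive Rab through the cytosol. In astrocytes and other glia Rabs serve uptake, lysosomal degradation, recycling of transporters and release of vesicles, while in neurons the Rab3 group is best known from synaptic vesicles.

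Markers of other cells moved with the groups, and in such bulk samples fewer cells of a type and less RNA per cell cannot be told apart. At 120 days 5 of 14 neuronal markers tested fell and none rose (median -1.09 on the log2 scale), and their summed signal was 9666 to 16843 in SOD1 G93A mice against 23405 to 30255 in NTg mice. Of 12 microglial markers tested 9 rose at 120 days and 4 at 90 days, and the summed signal of the 13 on the array at 120 days was 9688 to 11430 against 1621 to 1828. All 6 leukocyte markers and 3 of 12 astrocyte markers (Gfap, Aldh1l1 and Sox9) also rose at 120 days, none of the 7 oligodendrocyte or 5 endothelial markers tested did, and no marker of any of these lists was at 0. All 12 astrocyte markers passed the filter on dim probe sets. Their summed signal ranged from 17791 to 38350 over the 12 arrays. SOD1 G93A replicate 3 at 120 days stood apart, with a mean correlation of 0.860 with the other arrays of its group against 0.893 and 0.894 for these and at least 0.936 in every other group. The part of these shifts in the Rab values below was not tested.

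Of the 59 Rab genes 51 passed the filter on dim probe sets, which asked for a signal above the array's own median on at least 3 arrays. Of these, 41 were above the median on all 12 arrays. On the deposited scale, where every array has a trimmed mean of 100, the median signal over the arrays was 3600.0 for Rab3a, 2314 for Rab6b and 2087 for Rab14, but signals of different probe sets do not rank the amounts of RNA of different genes. The 8 that were not tested were Rab17, Rab19, Rab20, Rab25, Rab32, Rab40b, Rab42 and Rab44, and 5 of them were above the median on no array. Their highest signals on any array lay between 11.0 (Rab20) and 60.1 (Rab17). Rab39 and Rab26 were tested on the strength of only 5 and 4 arrays. For Rab39 these were all 3 NTg arrays at 90 days and 2 of the 3 at 120 days and no SOD1 G93A array, so its test depends on the group in which it was higher.

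At 120 days Rab29 and Rab7b rose and Rab30, Rab39, Rab9b and Rab6b fell in SOD1 G93A mice at an adjusted p under 0.05. These 6 were 11.8% of the Rab genes tested, beside 8.60% of all 12429 genes tested. By direction, 3.92% rose beside 4.14% of all genes and 7.84% fell beside 4.47%, so the share that rose was near the background. The share that fell rested on 4 genes and counts Rab39, which reached the test through NTg arrays only, so that 3 genes fell without it. At 90 days limma called no Rab gene, beside 0.225% of all genes, 0.185% that rose and 0.0402% that fell. Values below are normalized log2 signals, that is the log2 of the deposited signal plus 7 after quantile normalization within each age. Levels therefore compare within an age and not between ages.

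**Figure D1:**
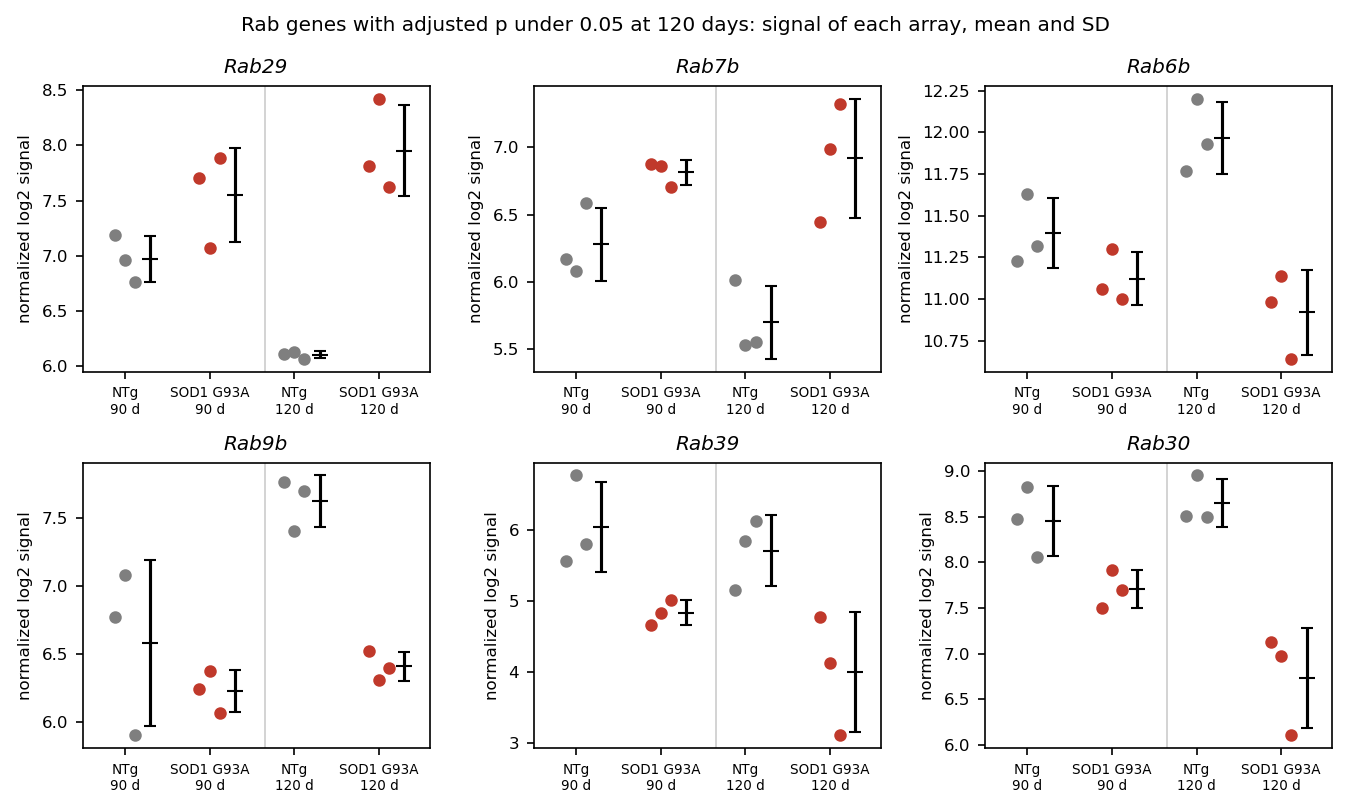
Normalized log2 signal (vertical axis) of the 6 Rab genes called at 120 days in the 4 groups (horizontal axis), with 1 point per array, the mean as a dash and the SD as the bar; each panel has its own vertical range. At 120 days the red SOD1 G93A points lie above the grey NTg points for Rab29 and Rab7b and below them for Rab6b, Rab9b, Rab39 and Rab30, with no overlap.

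Rab29, which brings the kinase LRRK2 to lysosomal and Golgi membranes, showed the larger rise. Its signal at 120 days was 7.81, 8.42 and 7.63 in SOD1 G93A mice and 6.11, 6.13 and 6.07 in NTg mice. The NTg arrays were almost level, and every SOD1 G93A array lay more than 1 unit above them. The log2 fold change was 1.85 ± 0.28 (SE), with an adjusted p of 0.00269 in limma. At 90 days the arrays gave 7.71, 7.07 and 7.88 against 7.19, 6.97 and 6.76, so that the lowest SOD1 G93A array fell within the NTg range, and the log2 fold change of 0.58 ± 0.28 did not pass (adjusted p 0.922). Rab29 kept its call at 120 days under all 12 alternative settings and with each of the 12 arrays left out in turn, and without SOD1 G93A replicate 3 its log2 fold change was 2.11.

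Rab7b acts between late endosomes and the trans-Golgi network and is known from macrophages, where it dampens Toll-like receptor signalling. Its signal at 120 days was 6.45, 6.99 and 7.32 in SOD1 G93A mice against 6.01, 5.54 and 5.55 in NTg mice. This was a rise of 1.22 ± 0.27 on the log2 scale (adjusted p 0.0200). The groups did not overlap at either age, since at 90 days the values were 6.88, 6.86 and 6.71 against 6.17, 6.08 and 6.59. That difference at 90 days, 0.54 ± 0.27, did not pass (adjusted p 0.934). The other tested probe set of Rab7b gave the same picture at 120 days, with a log2 fold change of 1.36 (adjusted p 0.0216). The call of Rab7b was lost without NTg replicate 2 (adjusted p 0.102) or NTg replicate 3 (adjusted p 0.0859) of the 120 day group and when each age was fitted alone (adjusted p 0.0687), and it was kept without SOD1 G93A replicate 3 (adjusted p 0.0491).

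Rab30, a Rab of the Golgi, showed the largest fall of the 51 genes. At 120 days its signal was 7.12, 6.98 and 6.10 in SOD1 G93A mice and 8.51, 8.96 and 8.50 in NTg mice. SOD1 G93A replicate 3 was the lowest array, and all 3 lay over 1 unit below the lowest NTg array. The log2 fold change was -1.92 ± 0.31 (adjusted p 0.00352), and -1.66 without SOD1 G93A replicate 3. At 90 days the groups did not overlap either, at 7.50, 7.92 and 7.70 against 8.48, 8.83 and 8.06, but the log2 fold change of -0.75 did not pass (unadjusted p 0.0300, adjusted p 0.811). The other tested probe set of Rab30 gave -1.11 at 120 days (adjusted p 0.111). As with Rab29, the call of Rab30 was kept under every alternative and with every array left out.

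Rab6b, the isoform of Rab6 found mainly in brain, works in retrograde transport to and through the Golgi. Its signal at 120 days was 10.98, 11.14 and 10.64 in SOD1 G93A mice and 11.77, 12.20 and 11.93 in NTg mice. All SOD1 G93A arrays lay below all NTg arrays, with a log2 fold change of -1.04 ± 0.24 (adjusted p 0.0226). At 90 days the values overlapped, at 11.06, 11.30 and 11.00 against 11.23, 11.63 and 11.32, with a log2 fold change of -0.27. The 3 other tested probe sets of Rab6b gave -0.88, -0.76 and 0.58 at 120 days, none of which passed, and the mean over all its probe sets was -0.53 (adjusted p 0.111). The call was also lost without SOD1 G93A replicate 3 (adjusted p 0.0713), NTg replicate 2 (0.106) or NTg replicate 3 (0.0732) of the 120 day groups, and with each age fitted alone (0.0684).

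Rab9b is the paralog of Rab9, which returns cargo from late endosomes to the trans-Golgi network. It read 6.52, 6.31 and 6.40 in SOD1 G93A mice and 7.77, 7.41 and 7.70 in NTg mice at 120 days, with little spread within either group. The log2 fold change was -1.22 ± 0.29 (adjusted p 0.0255). At 90 days the NTg arrays were more scattered, at 6.77, 7.08 and 5.90, and included the lowest value of that age, so that the groups overlapped (SOD1 G93A 6.25, 6.38 and 6.07). Leaving out an array of 120 days ended the call in 4 of 6 cases, at adjusted p 0.0506 without SOD1 G93A replicate 2 and 0.0788, 0.0759 and 0.0945 without NTg replicates 1, 2 and 3. Without SOD1 G93A replicate 3 the adjusted p was 0.0452.

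Rab39, known from late endosomes, phagosomes and autophagy and listed here among the Rabs of the cilium and other sites, gave the weakest signals among the 6. At 120 days its values were 4.78, 4.12 and 3.10 in SOD1 G93A mice and 5.16, 5.85 and 6.13 in NTg mice. On the deposited scale these SOD1 G93A arrays read 21.0, 12.3 and 2.9, the last below the offset of 7. The groups did not overlap at 120 days (log2 fold change -1.71 ± 0.42, adjusted p 0.0296) or at 90 days, where 4.66, 4.84 and 5.02 stood against 5.56, 6.77 and 5.81 (-1.21, unadjusted p 0.0132, adjusted p 0.624). With no SOD1 G93A array above the median, the size of the fall is set by the offset, and it was -2.44 with an offset of 1 and -0.85 with one at the 50th percentile of all values (34.4). The call at 120 days was lost without SOD1 G93A replicate 3 (log2 fold change -1.28, adjusted p 0.0831), NTg replicate 2 (adjusted p 0.119) or NTg replicate 3 (0.113), with each age fitted alone (0.0773) and with no filter (0.0519).

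The 250 bases upstream of the start of the called genes are shown because these genes moved in opposite directions, with the sequence of Rab29, which rose, set beside those of 3 genes that fell. RefSeq (GRCm38.p6) gave promoters for 48 of the 59 Rab genes and for 4 of the 6 called ones, and none is printed for Rab7b or Rab30. Rab29 lies at chr1:131867027-131867276 on the plus strand, Rab39 at chr9:53706233-53706482 on the minus strand, Rab6b at chr9:103111824-103112073 on the plus strand and Rab9b at chrX:136868557-136868806 on the minus strand. Sequences run 5′ to 3′ on the gene's strand, and capitals mark a GC box (GGGCGG, or CCGCCC on the other strand) or a CCAAT box (CCAAT, or ATTGG on the other strand).
Rab29: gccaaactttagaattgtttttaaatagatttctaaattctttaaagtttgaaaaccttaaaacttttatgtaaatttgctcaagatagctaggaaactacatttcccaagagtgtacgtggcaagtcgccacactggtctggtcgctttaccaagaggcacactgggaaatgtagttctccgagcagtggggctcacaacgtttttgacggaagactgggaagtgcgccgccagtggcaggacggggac
Rab39: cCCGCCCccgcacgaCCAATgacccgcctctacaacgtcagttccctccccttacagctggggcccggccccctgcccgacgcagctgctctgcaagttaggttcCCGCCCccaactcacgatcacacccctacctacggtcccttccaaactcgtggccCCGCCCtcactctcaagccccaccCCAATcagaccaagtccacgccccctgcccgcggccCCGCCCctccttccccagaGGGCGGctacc
Rab6b: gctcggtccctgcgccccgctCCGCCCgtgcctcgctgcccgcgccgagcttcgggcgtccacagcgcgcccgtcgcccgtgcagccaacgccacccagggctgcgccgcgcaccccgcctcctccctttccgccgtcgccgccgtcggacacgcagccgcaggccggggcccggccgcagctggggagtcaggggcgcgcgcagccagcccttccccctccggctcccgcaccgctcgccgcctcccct
Rab9b: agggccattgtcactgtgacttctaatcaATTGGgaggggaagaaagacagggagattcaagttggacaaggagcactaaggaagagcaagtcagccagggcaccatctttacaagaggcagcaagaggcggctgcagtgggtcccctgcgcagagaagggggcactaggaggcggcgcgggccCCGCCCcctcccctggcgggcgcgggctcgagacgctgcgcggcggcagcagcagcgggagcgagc

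The upstream stretch of Rab29 held none of the 5 motifs searched and had a GC content of 44.0%, while those of the 3 genes that fell held GC boxes and were richer in G and C. Rab39 held 5 GC boxes and 2 CCAAT boxes at 68.8% GC, Rab6b held 1 GC box at 80.8% and Rab9b held 1 of each at 64.4%. A GC box was also common over all Rab genes with a promoter, the called ones included. It stood in 66.7% of the 60 Rab promoters, which belong to 48 genes, and in 32.7% of all 32851 promoters of this length. The other motifs were the CCAAT box (40.0% of Rab promoters, 33.8% of all), the TATA box TATAAA or TTTATA (6.67% and 12.4%), the E-box CACGTG (8.33% and 6.02%) and the cyclic AMP response element TGACGTCA (3.33% and 1.55%). Such matches describe letters in this window and not sites in use. GC content is given only for the called genes with a promoter, and whether it goes with direction was not tested. The motifs were chosen after the fold changes had been seen.

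Rab7b and Rab29 are neighbours on mouse chromosome 1, with 4 annotated genes between them, of which 3 encode proteins. Of these, 2 were tested and neither was called at 120 days, with log2 fold changes of 0.01 ± 0.57 (SE) for Pm20d1 and 0.43 ± 0.47 for Slc41a1. Such errors leave room for a rise as large as that of Rab7b. Nucks1, on the far side of Rab29, gave 1.11 ± 0.47 (adjusted p 0.155). This comparison too was made after the calls had been seen.

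The remaining Rab genes are best read by where they act. In every group of Rabs no member was called at 90 days, and at 120 days the calls lay among the Rabs of the ER and Golgi, of late endosomes and lysosomes, and of the last group, which holds Rabs of the cilium together with those placed in no other group. The median log2 fold change over all 51 genes was -0.06 at 90 days and -0.23 at 120 days, beside 0.02 and -0.08 over all genes tested. Of the 51, 31 were below 0 at 90 days and 38 at 120 days, which is 60.8% and 74.5% beside 47.2% and 55.2% of all genes. Under median centring of the arrays the median at 120 days was -0.65 for the Rab genes and -0.40 for all genes, so the level of these medians depends on the scaling and the gap between them moved from -0.15 to -0.25.

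**Figure D2:**
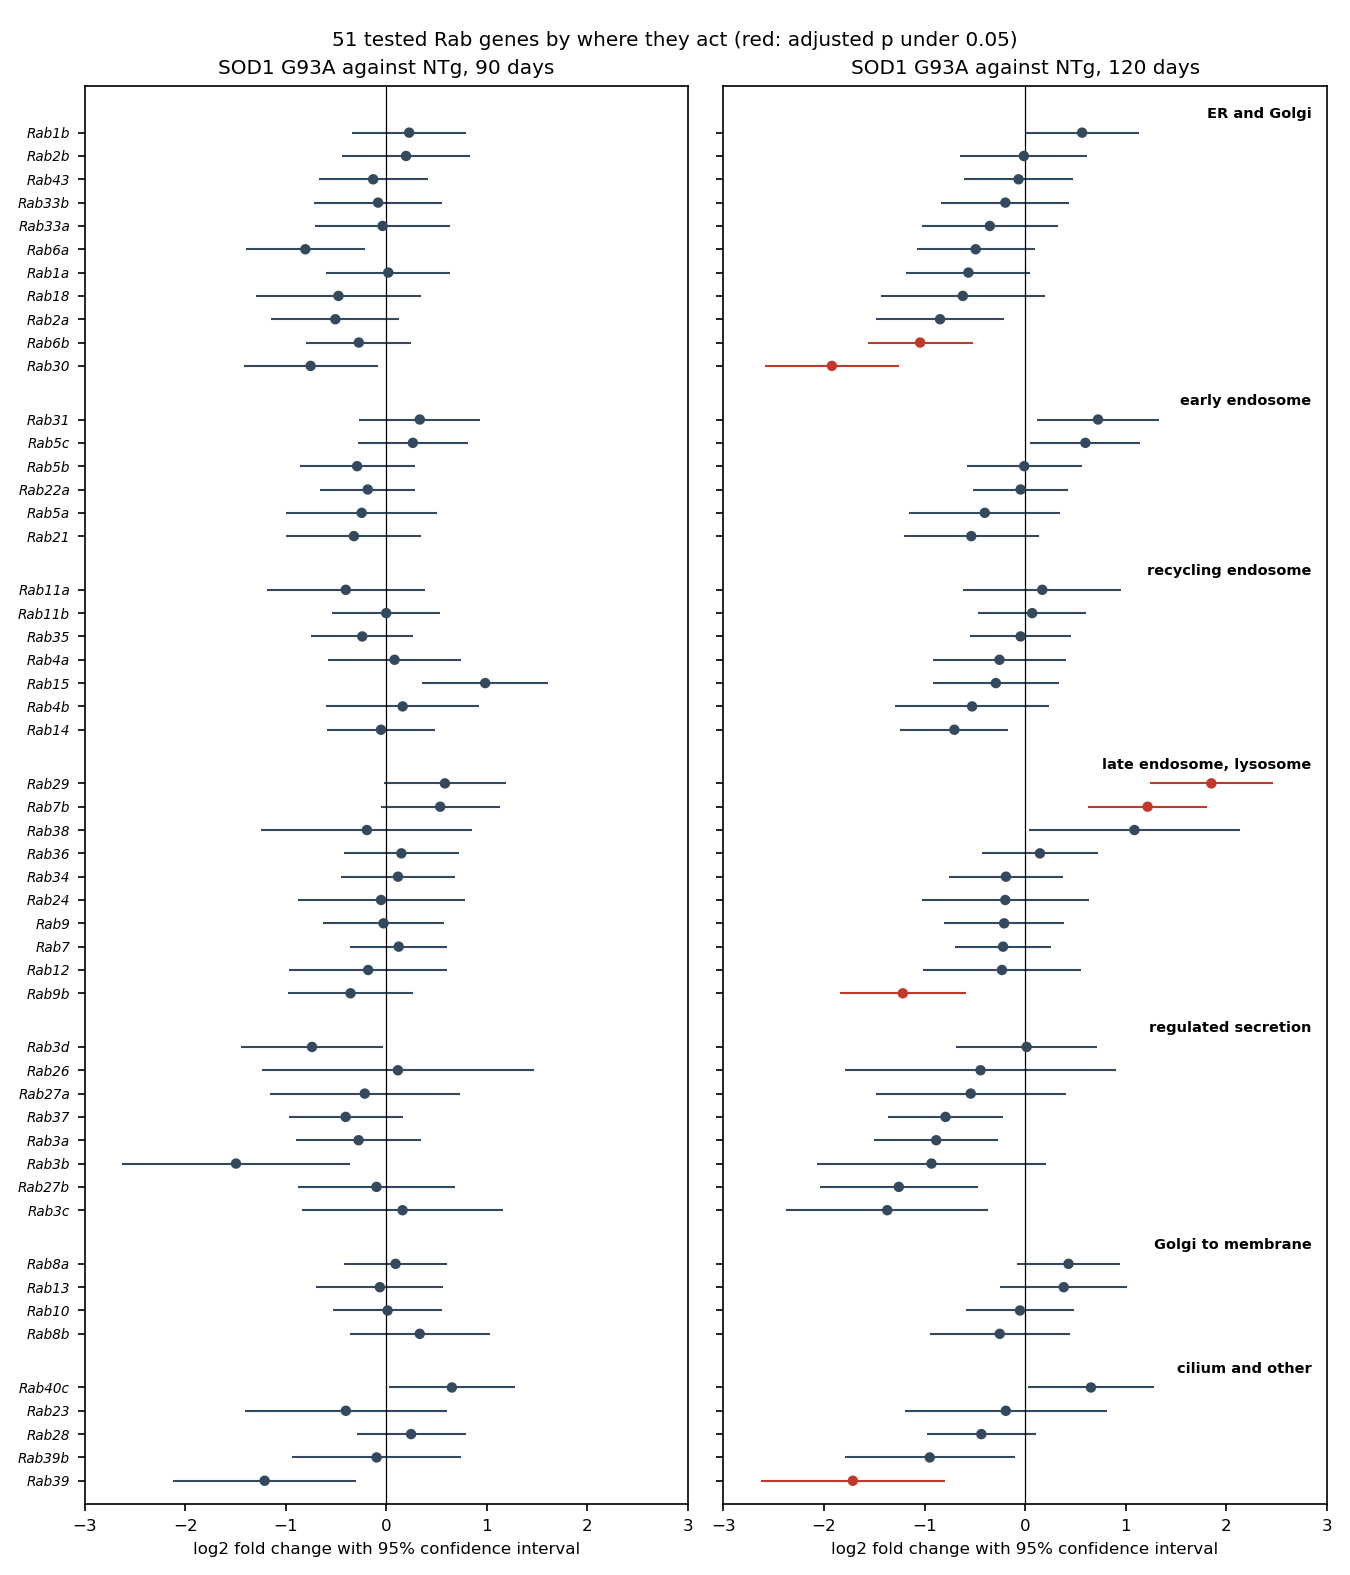
Log2 fold change of SOD1 G93A against NTg mice (horizontal axis, point with 95% confidence interval) for the 51 Rab genes tested (vertical axis, grouped by where they act) at 90 days on the left and 120 days on the right. No gene is red (adjusted p under 0.05) at 90 days; at 120 days 6 are, with Rab29 and Rab7b to the right of 0 and Rab6b, Rab30, Rab9b and Rab39 to the left, and 7 of the 8 secretion genes lie left of 0.

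Among the 11 Rabs of the ER and Golgi, Rab30 and Rab6b fell at 120 days and none rose, beside 4.47% and 4.14% of all genes. The median of this group was -0.49. Rab6a, the widely expressed form of Rab6, had a log2 fold change of -0.49 at 120 days (adjusted p 0.277) and of -0.81 at 90 days, where its arrays did not overlap (10.25, 10.36 and 9.44 against 10.75, 10.77 and 10.95, unadjusted p 0.0111, adjusted p 0.586). Rab2a, which directs traffic from the ER to the Golgi, gave -0.85 (adjusted p 0.0939). Its 5 other tested probe sets gave -1.10, -0.67, 0.21, 0.30 and 0.42, and none passed, so its direction depends on the probe set. Rab1b, needed for vesicles that leave the ER, gave 0.57 (adjusted p 0.193). On the brightest probe sets, the arrays of Rab1b and those of Rab2a did not overlap between the groups at 120 days, and they lay on opposite sides.

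The 8 Rabs of regulated secretion had the lowest median of the 7 groups at 120 days, -0.84, and none passed the adjusted threshold. Rab3c and Rab3a, which hold synaptic vesicles ready for release, were lower on every SOD1 G93A array. Rab3c read 7.38, 7.36 and 6.99 against 8.47, 8.65 and 8.73 (log2 fold change -1.37 ± 0.47, adjusted p 0.0863), and Rab3a 11.84, 10.98 and 11.16 against 12.07, 12.33 and 12.23 (-0.88 ± 0.29, adjusted p 0.0764). Rab27b, which docks exosome-bearing endosomes and secretory granules at the plasma membrane, read 6.83, 6.73 and 5.37 against 7.87, 7.26 and 7.57 (-1.26 ± 0.36, adjusted p 0.0526). The 2 other tested probe sets of Rab27b went opposite ways, at -0.92 (adjusted p 0.165) and 0.72 (adjusted p 0.157). Rab37 of secretory granules read 6.54, 6.36 and 6.32 against 7.04, 7.36 and 7.20 (-0.79 ± 0.26, adjusted p 0.0816). These 4 were the secretion genes whose groups did not overlap at 120 days. Under median centring of the arrays 3 of them (Rab3c, Rab27b and Rab37) fell, where 19.6% of the Rab genes tested and 13.1% of all genes did. Over all Rab genes the groups did not overlap for 7 that were higher and 16 that were lower in SOD1 G93A mice at 120 days, 13.7% and 31.4% beside 15.3% and 20.4% of all genes. At 90 days these were 2 and 7 genes, 3.92% and 13.7% beside 6.95% and 5.45%. The lower genes of both ages include Rab39, which reached the test through NTg arrays only.

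Among the other secretion genes Rab3d gave 0.02, Rab26 -0.44 and Rab27a -0.54 at 120 days, and the value of Rab27a was 0.015 without SOD1 G93A replicate 3. The 2 other tested probe sets of Rab3d gave 1.17 and 0.04 at 120 days and -1.33 and 0.48 at 90 days. None of these passed, and the change of Rab3d depends on the probe set. Rab3b gave -0.93 at 120 days, where NTg replicate 1 (3.75) lay below all SOD1 G93A arrays, and -1.49 at 90 days, where 5.81, 5.63 and 5.25 stood below 6.21, 7.58 and 7.39 (unadjusted p 0.0138, adjusted p 0.638). On their brightest probe sets Rab3b and Rab3d were thus lower on every SOD1 G93A array at 90 days and not at 120 days. Rab3a, Rab3c, Rab27b and Rab37 overlapped at 90 days. Beside these, the neuronal markers had medians of -0.32 at 90 days and -1.09 at 120 days. Without SOD1 G93A replicate 3 the values at 120 days were -1.29 for Rab3c, -0.76 for Rab3a and -0.82 for Rab27b.

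**Figure D3:**
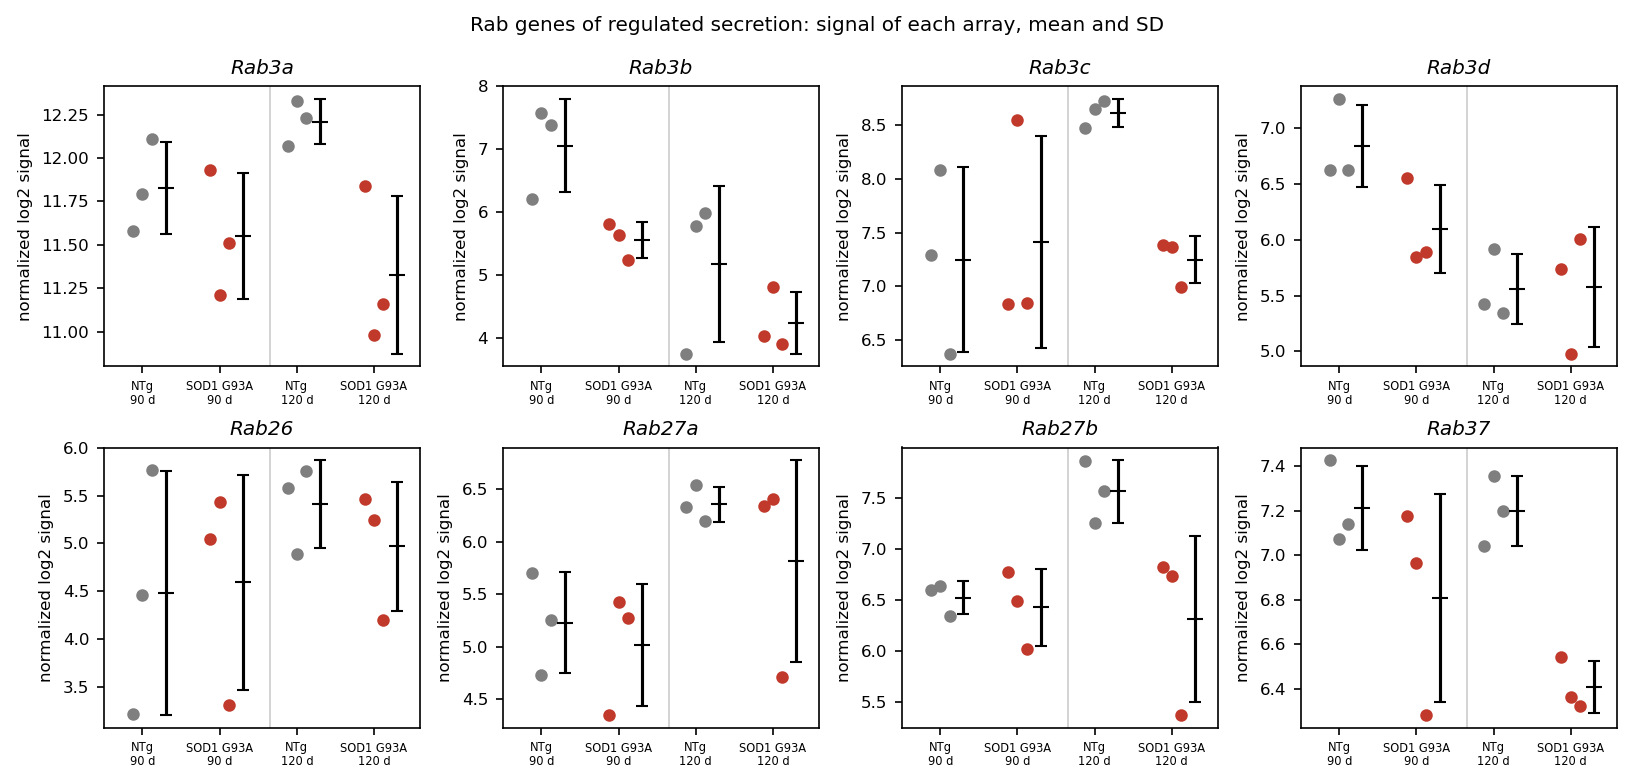
Normalized log2 signal (vertical axis) of the 8 Rab genes of regulated secretion in the 4 groups (horizontal axis), with 1 point per array, the mean as a dash and the SD as the bar; each panel has its own vertical range. At 120 days the red SOD1 G93A points of Rab3a, Rab3c, Rab27b and Rab37 lie below all grey NTg points, and those of Rab3b, Rab3d, Rab26 and Rab27a overlap them.

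The 10 tested Rabs of late endosomes and lysosomes went both ways, with Rab29 and Rab7b up, Rab9b down and a median of -0.19. Over all genes 4.14% rose and 4.47% fell. Were Rab39 counted here, 2 of the 11 would be down. Rab7, which drives fusion of late endosomes with lysosomes, had a log2 fold change of -0.22 at 120 days (adjusted p 0.567, 95% interval -0.70 to 0.26). Rab9 gave -0.21 (adjusted p 0.672). Rab38, known from pigment granules and other lysosome-related organelles, gave 1.09 ± 0.49 (adjusted p 0.179) and rested on SOD1 G93A replicate 3, which read 8.08 where the others read 6.28 and 6.46 and the NTg arrays 6.17, 6.08 and 5.30.

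Early and recycling endosomes showed no call. The 6 early endosome Rabs had a median of -0.03 at 120 days, with Rab5a, which governs fusion of early endosomes, at -0.40 (adjusted p 0.496), Rab5c at 0.60 (adjusted p 0.157) and Rab31 at 0.73 (adjusted p 0.124). The 7 recycling Rabs tested had a median of -0.25, and Rab14, which serves traffic between endosomes and the Golgi, gave -0.70 (adjusted p 0.0982) with arrays of 10.77, 10.80 and 10.38 against 11.21, 11.55 and 11.31. The 6 other tested probe sets of Rab14 gave -1.07, -0.91, -0.34, -0.23, 0.21 and 0.51, none of which passed. Rab15, a regulator of endosomal recycling known from neurons, showed the largest rise at 90 days. Its arrays then read 8.66, 8.81 and 8.22 against 7.63, 7.98 and 7.13 without overlap (log2 fold change 0.98 ± 0.29, unadjusted p 0.00463, adjusted p 0.453), and at 120 days it gave -0.29.

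The 4 Rabs that carry cargo from the Golgi to the plasma membrane had a median of 0.17 at 120 days, with Rab10 at -0.05 (adjusted p 0.920, 95% interval -0.59 to 0.49). Of the 5 tested Rabs of the cilium and other sites, Rab39 fell, its paralog Rab39b, whose gene is mutated in X-linked intellectual disability with parkinsonism, gave -0.95 (adjusted p 0.149) and Rab40c gave 0.66 at 120 days and 0.65 at 90 days (adjusted p 0.176 and 0.868).

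Counted at an unadjusted p under 0.05, 2 Rab genes were higher and 5 lower at 90 days, 3.92% and 9.80% beside 3.50% and 2.72% of all genes. At 120 days 7 were higher and 11 lower, 13.7% and 21.6% beside 11.6% and 16.1%. With a fold change of 2 asked for as well, no gene was higher at 90 days, beside 1.33% of all genes. Rab39 and Rab3b were lower at that age (3.92% beside 0.813%). Rab39, which reached the test through NTg arrays only, is in every count of lower genes given here, at both ages. At 120 days Rab29, Rab7b and Rab38 were higher and Rab30, Rab39, Rab3c, Rab27b, Rab9b and Rab6b lower, 5.88% and 11.8% beside 5.56% and 7.68%.

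Whether the difference between SOD1 G93A and NTg mice changed from 90 to 120 days was tested as an interaction. No Rab gene and no other gene passed at an adjusted p under 0.05 in limma. At an unadjusted p under 0.05 there were 1 Rab gene with a greater value at 120 days, Rab29 (difference 1.27, p 0.00708), and 5 with a lower one, 1.96% and 9.80% beside 3.93% and 5.15% of all genes. The 5 were Rab15 (-1.27, p 0.00808), Rab30 (-1.17, p 0.0190), Rab3c (-1.53, p 0.0363), Rab6b (-0.77, p 0.0416) and Rab27b (-1.16, p 0.0418). An effect called at 120 days is therefore not shown to differ from that at 90 days for any of them.

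Other probe sets of the same genes did not always follow the brightest. Of 104 Rab probe sets tested 3 rose and 7 fell at 120 days, 2.88% and 6.73% beside 3.6% and 3.86% of all 26132 probe sets tested. None was called at 90 days, beside 0.115% of all that rose and 0.023% that fell, and 29 genes had a further tested probe set. Rab3a fell on its other probe set (log2 fold change -1.17, adjusted p 0.0373). Rab11a, the central Rab of recycling endosomes, fell on a dimmer probe set (-1.37, adjusted p 0.0305) and gave 0.17 on its brightest, which was -0.32 without SOD1 G93A replicate 3. Rab2b fell on a dimmer one (-1.70, adjusted p 0.0396) and gave -0.01 on its brightest, which was 0.084 without SOD1 G93A replicate 3. Of the 4 other tested probe sets of Rab2b, 3 were lower and the last gave 0.23 (adjusted p 0.660). The size and direction of the change of Rab2b thus depend on the probe set, and so does the direction for Rab11a. The brightest probe sets of Rab3a, Rab6a and Rab38 are of the _x_at kind and those of Rab2a, Rab14, Rab4a and Rab22a of the _s_at kind, which can detect related transcripts too.

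Of the called genes 4 have a close paralog on the array, and the change of each was set against that of its paralog on the same array. At 120 days Rab7b moved by 1.44 log2 units more than Rab7, Rab9b by -1.01 against Rab9, Rab6b by -0.55 against Rab6a and Rab39 by -0.76 against Rab39b. The SOD1 G93A and NTg arrays did not overlap in this difference for the first 3 pairs. With 3 arrays against 3 an exact permutation test can give no 2-sided p under 0.1, so no pair could pass the threshold for calls. The first 3 pairs gave 0.1 in this test (adjusted over the 4 pairs, 0.133) and Rab39 against Rab39b gave 0.2. Nothing is concluded from these p-values. The gap for Rab6b depends on the probe set taken for Rab6a, whose other tested probe sets gave -0.79 and -0.96, closer to the value of Rab6b, beside the -0.49 used. The pairs were chosen after the calls had been seen, and the gaps use the same arrays that gave these calls. The lack of overlap is therefore not a separate test of the calls.

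The machinery that switches Rabs was followed through 112 further genes on the array, of which 100 were tested. None was called at 90 days, beside 0.225% of all genes. At an unadjusted p under 0.05, 5 were higher and 1 lower at that age, beside 3.50% and 2.72% of all genes. At 120 days 2 of the 100 rose and 5 fell, beside 4.14% and 4.47% of all genes, so the calls were near or below the background. At an unadjusted p under 0.05, 8 were higher and 26 lower, beside 11.6% and 16.1%, and the median log2 fold change was -0.22, beside -0.08 over all genes. The 7 genes of prenylation and GDP dissociation inhibition and the 28 exchange factors tested held no call, with medians of -0.54 and -0.11. Under median centring of the arrays 1 rose and 23 fell, beside 2.89% and 13.1% of all genes, so the number that fell depends on the scaling here as it does over all genes.

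Of the 37 GTPase-activating proteins tested 2 fell at 120 days and none rose, beside 4.47% and 4.14% of all genes. Sgsm3, a TBC-domain protein, reached the test only through the NTg arrays at 120 days, which read 6.26, 7.49 and 6.89. The SOD1 G93A arrays read 3.90, 4.05 and 4.12 and, like all 6 arrays at 90 days, lay below their array's median, so its fall (adjusted p 0.000651) has no firm size: the log2 fold change was -2.86 as fitted, -3.46 with an offset of 1 and -1.74 with one at the 50th percentile. Without any 1 of the 3 NTg arrays at 120 days it failed the filter and had no value. Rabgap1l, another TBC-domain protein, gave -0.87 (adjusted p 0.0354) and -0.13 on its other tested probe set. Among the 28 effectors Mical1 and Micall2 rose and 3 fell, beside 4.14% and 4.47% of all genes. Mical1, a monooxygenase that takes actin filaments apart and binds Rab proteins, gave 1.33 (adjusted p 0.0230). Its other tested probe set gave 0.81 and was not called. Micall2, a relative of Mical1, was above the median on all SOD1 G93A arrays but on 1 NTg array of each age. It gave 1.25 (adjusted p 0.0205). Osbpl1a, a sterol-sensing partner of Rab7 on late endosomes, gave -1.27 (adjusted p 0.0225) and -0.22 on its other probe set. Rab11fip5, which binds Rab11, gave -0.94 (adjusted p 0.0274) and -0.74 on its other probe set, which was not called. The golgin Gcc2, which binds Rab6 and Rab9, gave -0.92 (adjusted p 0.0380). These 6 all lost their calls without NTg replicate 2 of 120 days, at adjusted p from 0.0758 to 0.166.

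**Figure D4:**
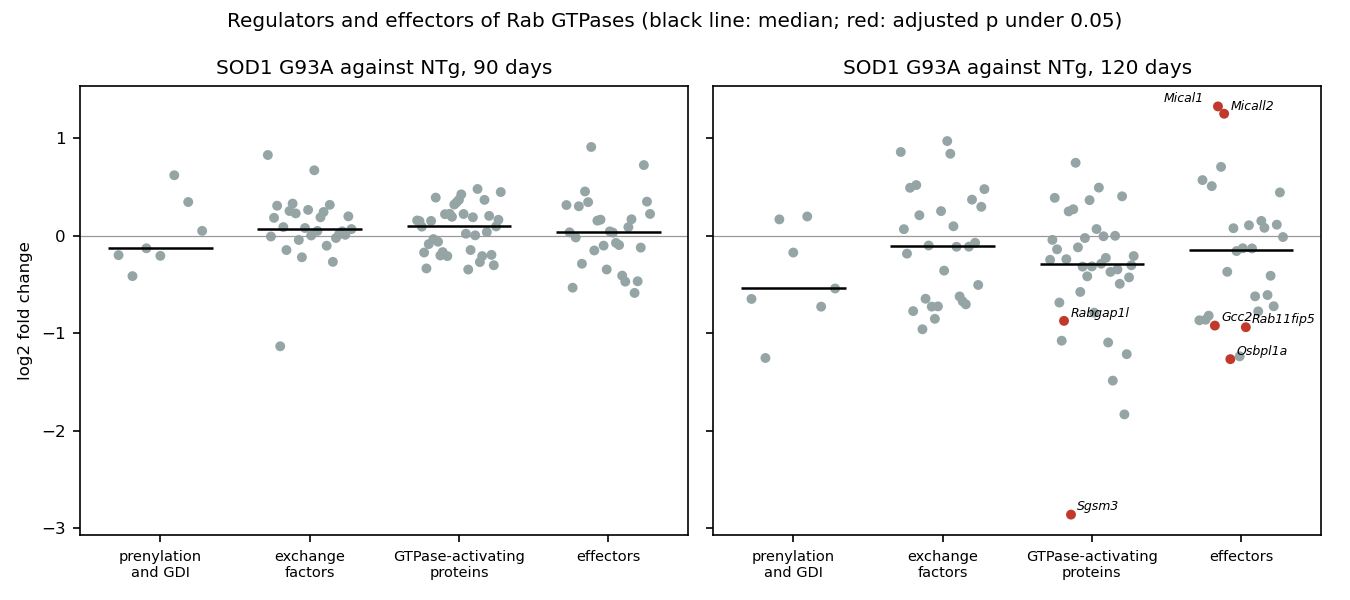
Log2 fold change of SOD1 G93A against NTg mice (vertical axis) for the 100 tested regulators and effectors of Rab proteins in 4 classes (horizontal axis) at 90 days on the left and 120 days on the right; each point is a gene and the black line the median of its class. No point is red (adjusted p under 0.05) at 90 days, and 7 are named in red at 120 days; that of Sgsm3 rests on SOD1 G93A signals below the array median, so its distance from 0 has no firm size.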

How the data were processed

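Astrocyte RNA of 12 mice (4 groups of 3) was amplified in 2 rounds and hybridised to 1 array per mouse. The deposited values are linear signal intensities made by the authors with MAS5, whose version is not given in the sources used here, with the trimmed mean of every array set to 100 (2% trimmed from each end). The methods describe PLIER summaries for differential expression, which these are not. The number of arrays limits the precision, and no background or present call was used. The labels number the samples of a group and give no animal, batch or pairing. That each group holds 3 mice comes from the methods.

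Signals plus 7 (the 20th percentile of all values) were taken as log2 and quantile-normalized within each age. The array holds 45101 probe sets, 64 of them controls, and 26132 others exceeded their array's median on at least 3 arrays and were tested. limma 3.58.1 (R 4.3.3) fitted 4 group means with 8 residual degrees of freedom and empirical Bayes, and the Benjamini-Hochberg adjustment ran over all probe sets tested, with a threshold of 0.05. Counts over genes use the brightest probe set of each of 12429 genes. The fit was checked on simulated data. The platform annotation named 1 gene for 34945 probe sets, several for 932 and no gene for 9160. All 59 Rab genes matched RefSeq by gene number with the same symbol. The Rab genes, role lists, regulator lists and marker lists were chosen with earlier results of these data known, and list genes with no probe set of their own symbol were not analysed here. Genes are named when called in a comparison, when past a 2-fold change at an unadjusted p of 0.05, when among the 5 largest rises or falls of an age, when brightest of their role or a paralog of a called gene, and, for regulators, up to 4 called per list. Rab1b, Rab2a, Rab4a, Rab5c, Rab11a, Rab22a, Rab2b, Rab26, Rab27a, Rab37 and Gcc2 were named in addition after their values had been seen. Alternatives were other scalings, offsets, filters, priors, array weights, the mean of all probe sets, each age alone, a replicate block and leaving out each array.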

Additional observations from a re-analysis of the deposited data

How the results depend on the processing

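Rab29 and Rab30 kept their calls at 120 days under every alternative run, and all 6 called genes kept their direction. The number of Rab genes that rose at 120 days, 2, was 1 with each age fitted alone and 1 to 2 with an array left out. The number that fell, 4, was 10 with median centring, 9 with an offset at the 50th percentile (34.4), 8 with a trended and robust prior, and 1 to 6 with an array left out (2 without SOD1 G93A replicate 3, 1 without NTg replicate 2 or 3). With median centring the 10 were 19.6% of the Rab genes tested, beside 13.1% of all genes. As fitted, the 4 were 7.84% beside 4.47%. Shares of all genes under the other offset and prior are not given here. Rab27b, on its brightest probe set, was called in 9 of the alternatives run. With a 2-fold change at an unadjusted p of 0.05 in place of the adjusted p, 2 were lower at 90 days, and the difference between the ages was higher for 1 and lower for 4. Among all genes the share that rose among those called at 120 days was 48.1%, and 18.1% with median centring.

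Replicate numbers did not pair the arrays, since deviations of same-numbered arrays correlated at -0.27, 0.28 and -0.28 at 90 days and -0.07, 0.04 and -0.01 at 120 days. The largest such correlation at 90 days was 0.46, between SOD1 G93A replicate 1 and NTg replicate 3, and its source was not tested. With the replicate number as a block 1 Rab gene rose and 3 fell at 120 days, where Rab7b (adjusted p 0.0668), Rab6b (0.0564) and Rab39 (0.0667) were not called and Rab3c was.

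No called value changed sign. Uncalled values of the named genes that did were, at 90 days, Rab10 (-0.050 with values as deposited, -0.11 with median centring, -0.12 to 0.13 with an array left out), Rab38 (0.41 with array weights, -0.66 to 0.086), Rab3c (-0.25 with the mean of all probe sets, -0.41 to 0.57), Rab9 (0.018 with array weights, -0.21 to 0.23), Rab14 (-0.22 to 0.090), Rab27b (-0.27 to 0.11), Rab39b (-0.34 to 0.15) and Rab5a (-0.56 to 0.084), and at 120 days Rab3d (-0.048 with median centring, -0.068 with array weights, -0.21 to 0.32), Rab10 (-0.16 to 0.16), Rab11a (-0.39 with median centring, -0.23 with array weights, -0.60 with the mean of all probe sets, -0.32 to 0.52), Rab2b (0.032 with array weights, -0.14 to 0.084) and Rab27a (-0.84 to 0.015). The cause of these shifts was not tested. Signals near the offset carry little precision, which bears most on Rab39, Rab26, Rab3b and Rab38.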
